A study of Homo sapiens with 4 samples.

Results

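A cassette exon is an internal exon that a transcript can include or skip. Such exons were measured in A549, an established human cell line from a lung adenocarcinoma, through 2 kinds of junction. An inclusion junction joins the exon to a neighbour, and the skipping junction, called the outer junction here, joins the neighbours to each other. The cassette exons described here lie under outer junctions of intermediate span, from 5000 bp to under 20000 bp, measured as the longer of the examined and background junctions of an event. Of 3768 junction events in the table, 1707 were annotated as cassette exons, 1700 of those had a value in every library, and 691 had an outer junction in this range. Shorter outer junctions held 681 events and longer ones 328. Of the 691 events, 492 examined an inclusion junction, 198 a skipping junction, and 1, in RHBDF2, could not be assigned to either. They fell on 461 outer junctions in 436 genes, with a median span over events of 9660 bp.

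The comparison was between 2 libraries of RBM10 wild-type cells and 2 libraries of cells with RBM10 knocked down with a lentiviral shRNA. Transduced cells were kept in 1 µg/mL puromycin for 10 to 14 days to give a stable population. No control construct or drug is named for the wild-type group, so the loss of RBM10 cannot be told apart from transduction and selection. Nothing says that the replicates came from separate cultures, so p-values reflect only how these libraries vary, and that variation may be technical.

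RBM10 is an RNA-binding protein of the spliceosome. It contacts sequences near splice sites and is best known for promoting the skipping of cassette exons, so that many exons are included more often when it is lost. The gene is recurrently mutated in lung adenocarcinoma. RBM10 mRNA stood at 35.5 and 40.8 RPKM (reads scaled for gene length and library size) in the wild-type pair and 11.6 and 10.9 RPKM in the knockdown pair, with 29.5% of the wild-type mean left. It fell by 1.67 on the log2(RPKM + 1) scale (SE 0.11; limma, Benjamini-Hochberg adjusted p = 1.01e-05). All 6 of 7 listed epithelial markers that had a row in the expression table were at 1 RPKM or more in every library, with a summed level of 2364 to 2699 RPKM in wild type and 4331 to 4367 RPKM in knockdown. The part of this difference in the results below was not tested. Of the alveolar type II markers, 3 of 7 had a row and only ABCA3 reached 1 RPKM in all 4 libraries. Of the leukocyte, endothelial and erythroid lists, 4 of 11 markers had a row and none was at 1 RPKM or more in all 4 libraries.

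The following exons were chosen among those described below, not by rank of difference, and are fully coding in at least 1 annotated transcript. They are printed 5′ to 3′ on the transcript strand, from GENCODE v29 transcripts (hg38), with capitals marking the last 3 bases, the exonic part of the 5′ splice site. VCL, SEC24B, R3HDM1, IFT88, SMPD4 and SNX14 had higher inclusion in knockdown, SLC30A5, SH3YL1 and EYA3 had lower inclusion, and NUMB is a reported target of RBM10.
VCL (chr10:74111909-74112112, + strand, 204 bases): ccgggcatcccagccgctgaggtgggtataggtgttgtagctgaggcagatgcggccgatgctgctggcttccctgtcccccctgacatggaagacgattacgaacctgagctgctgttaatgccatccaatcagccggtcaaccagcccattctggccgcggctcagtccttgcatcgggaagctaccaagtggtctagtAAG
SEC24B (chr4:109481677-109481781, + strand, 105 bases): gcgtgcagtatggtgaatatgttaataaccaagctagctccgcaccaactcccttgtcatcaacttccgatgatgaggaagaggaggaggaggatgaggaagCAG
R3HDM1 (chr2:135616668-135616757, + strand, 90 bases): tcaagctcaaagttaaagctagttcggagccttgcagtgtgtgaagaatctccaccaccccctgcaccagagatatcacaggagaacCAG
IFT88 (chr13:20589811-20589867, + strand, 57 bases): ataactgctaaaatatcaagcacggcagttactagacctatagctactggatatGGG
SMPD4 (chr2:130161186-130161272, - strand, 87 bases): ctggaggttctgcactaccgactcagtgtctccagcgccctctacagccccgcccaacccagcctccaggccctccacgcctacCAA
SNX14 (chr6:85538838-85538864, - strand, 27 bases): aggtagcctaagtttggatgatttTCG
SLC30A5 (chr5:69100807-69100929, + strand, 123 bases): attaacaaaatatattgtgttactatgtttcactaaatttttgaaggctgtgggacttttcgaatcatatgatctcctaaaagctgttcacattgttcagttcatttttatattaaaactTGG
SH3YL1 (chr2:224864-224920, - strand, 57 bases): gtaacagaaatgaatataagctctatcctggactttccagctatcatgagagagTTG
EYA3 (chr1:28027789-28027926, - strand, 138 bases): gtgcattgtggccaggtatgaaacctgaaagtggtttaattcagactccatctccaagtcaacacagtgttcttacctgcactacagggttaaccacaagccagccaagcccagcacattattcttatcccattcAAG
NUMB (chr14:73279281-73279424, - strand, 144 bases): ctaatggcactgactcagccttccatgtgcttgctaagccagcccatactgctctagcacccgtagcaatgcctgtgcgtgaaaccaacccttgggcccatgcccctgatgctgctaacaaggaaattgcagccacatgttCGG
All 10 have a length that is a multiple of 3, so that including or skipping them keeps the reading frame.

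Vinculin (VCL) links integrins and cadherins to actin. Its exon is exon 19 of transcript ENST00000211998 and makes the longer muscle form, metavinculin, when included. PSI is the deposited fraction, from 0 to 1, for the use of the examined junction. The background junction named beside it need not make up the rest. Where 2 junctions were each other's background, their PSI summed to a median of 0.865. The skipping junction of VCL was at 0.964 and 0.972 in wild type, against 0.525 and 0.522 in knockdown. The 2 inclusion junctions went with it. The one into the exon was at 0.0174 and 0.00678 in wild type and at 0.274 and 0.297 in knockdown, and the one out of it at 0.0174 and 0.0217 and at 0.291 and 0.267. The junctions into and out of the exon were thus near 0 in both wild-type libraries and well above it in both knockdown libraries, and the groups did not overlap at any of the 3 junctions. The difference of the skipping junction was -0.445 (SE 0.083; limma adjusted p = 0.223), and that of the inclusion junction into the exon was 0.274 (SE 0.0833; limma adjusted p = 0.259). VCL mRNA did not pass the test for expression (log2 change 0.18, limma adjusted p = 0.259).

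None of the 691 events passed limma on PSI with adjustment over 3744 events of all types at an adjusted p under 0.05 with PSI differing by at least 0.1, while 4 events, or 0.107% of those tested, did. The smallest adjusted p among the 691 was 0.111, for ZNF530. Without adjustment, 133 of the 691 events (19.2%) met p under 0.05 with PSI at least 0.1 apart and groups that did not overlap, beside 18.4% of all tested events. The p-value alone set the count of 133, as the same number had p under 0.05. The share among these cassette exons was thus near that of the whole table. When any single library was left out, 53 (without wild-type replicate 2) to 62 events (without knockdown replicate 2) met these criteria. Below, "past the unadjusted criterion" stands for this rule, and no exon past it is called changed. An exact permutation test of 2 against 2 libraries cannot give a two-sided p below 0.333. The median absolute difference between the groups was 0.147 in PSI, against 0.112 between the 2 wild-type and 0.106 between the 2 knockdown libraries. The first compares means of 2 libraries and the others compare single libraries, so they are not on the same scale. The deposited dPSI column, read here as a spread of PSI over the 4 libraries, was 0.15 or more in all 691 events. It is not the difference between the groups, which was -0.00856 for MTMR1. The listed events thus already vary over these same libraries, and shares are of listed events, not of all exons.

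To count each exon choice once, every outer junction was represented by its first inclusion junction by coordinate, or by its skipping junction with the sign turned where no inclusion junction was listed. Inclusion was higher in knockdown at 46 of 460 outer junctions and lower at 27 by the unadjusted criterion, or 10.0% and 5.87%. Over all 1189 cassette-exon outer junctions the shares were 11.2% higher and 5.97% lower, near those of the intermediate class. The median inclusion difference was 0.0236, and 246 of 460 differences (53.5%) were positive. With the event of largest difference in place of the first, the median was 0.0454, and with inclusion junctions alone it was 0.0136. Without a single library, 23 to 30 outer junctions were higher and 11 to 12 lower, the lowest count of higher ones coming without either wild-type replicate, and the median lay between 0.0111 (without knockdown replicate 2) and 0.0447 (without wild-type replicate 2).

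The direction of the differences went with the span of the outer junction. Of outer junctions under 5000 bp, 77 of 484 (15.9%) had higher and 18 (3.72%) lower inclusion. From 20000 bp up, 10 of 245 (4.08%) had higher and 26 (10.6%) lower inclusion. Higher inclusion thus made up 81.1% of those past the criterion in the short class, 63.0% in the intermediate class and 27.8% in the long class, and the median inclusion difference was 0.101, 0.0236 and -0.0509 in the same order. Leaving out any library kept the share between 74.3% and 83.3% for short, between 67.6% and 71.4% for intermediate and between 6.67% (without wild-type replicate 2) and 47.1% (without knockdown replicate 2) for long outer junctions. Inside the intermediate class the medians followed the same order, while the counts stood in a similar proportion, with 28 higher and 16 lower of 253 outer junctions under 10000 bp (median difference 0.0568), and 18 higher and 11 lower of 207 from 10000 bp up (median difference -0.0123). The difference between span classes was not tested. At the edges of the range, the last outer junction inside at the short end, of ADGRG2 (5003 bp), had an inclusion difference of 0.159, and the nearest one outside, of NIN (4990 bp), of -0.0323. At the long end, FBXL4 (19984 bp) was at -0.129 inside and FEZ2 (20084 bp) at 0.135 outside.

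**Figure D1:**
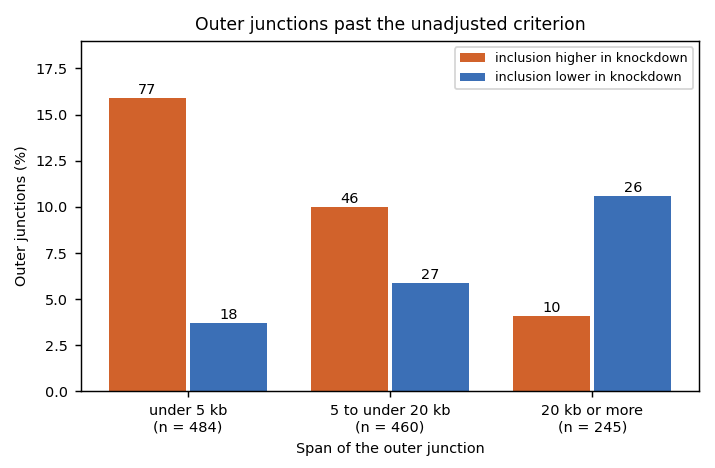
Share of outer junctions (%, vertical axis) past the unadjusted criterion in each span class (horizontal axis), with inclusion higher (orange) or lower (blue) in knockdown and the count above each bar. Orange bars shrink from 15.9% to 4.08% and blue bars grow from 3.72% to 10.6% as the span increases, with 10.0% and 5.87% in the intermediate class.

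The 12 outer junctions with the largest differences toward higher inclusion were led by ZNF530, a zinc finger gene. Its skipping junction (outer junction chr19:57604406-57612503) was at 0.846 and 0.769 in wild type and at 0.154 and 0.125 in knockdown, a difference in inclusion of 0.668 (SE 0.0861; limma adjusted p = 0.111). The only annotated exon under it, of 2142 bases, is partly coding. ZNF530 mRNA was below 1 RPKM, at 0.2903 and 0.2987 RPKM in wild type and 0.3069 and 0.2004 RPKM in knockdown. R3HDM1, which encodes a protein with an R3H nucleic acid-binding domain, had its inclusion junction at 0.233 and 0.364 in wild type and 0.947 and 0.824 in knockdown, and its skipping junction at 0.697 and 0.457 and at 0.0238 and 0.115. The inclusion junction was below 0.4 in both wild-type and above 0.8 in both knockdown libraries. Its difference was 0.587 (SE 0.0971; limma adjusted p = 0.197).

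SEC24B, a cargo adaptor of the COPII coat that buds vesicles from the endoplasmic reticulum, had an inclusion junction at 0.196 and 0.246 in wild type and 0.700 and 0.534 in knockdown. Its second inclusion junction was at 0.226 and 0.338 and at 0.739 and 0.645, and its skipping junction at 0.651 and 0.544 and at 0.162 and 0.252. None of the 3 junctions of SEC24B had overlapping groups. SMPD4, a neutral sphingomyelinase, was at 0.308 and 0.302 in wild type and 0.646 and 0.604 in knockdown at 1 inclusion junction, and at 0.397 and 0.332 and 0.728 and 0.714 at the other. In SMPD4 the replicates lay close together at the first junction, and the difference was 0.320 (SE 0.0839; limma adjusted p = 0.259).

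Genes of the cilium and centrosome appeared among these 12. IFT88, a subunit of the intraflagellar transport complex that builds cilia, had its inclusion junction at 0.640 and 0.452 in wild type and at 0.933 and 0.958 in knockdown. CEP164, a protein of the distal appendages that anchor the mother centriole, was at 0.0811 and 0.25 and at 0.588 and 0.415. Both knockdown libraries were above both wild-type libraries in each gene. No list of ciliary genes was among those chosen for the analysis, so nothing is read from the pair.

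The remaining 6 of the 12 were genes of several kinds. ZNF227, another zinc finger gene, was at 0.564 and 0.513 in wild type and 0.960 and 0.867 in knockdown. DNMT3B, a de novo DNA methyltransferase, was at 0.338 and 0.216 and at 0.702 and 0.500, and ITGB3BP, a centromere protein, at 0.0597 and 0.241 and at 0.636 and 0.348. The last 3 were read from skipping junctions, where knockdown was lower. BCAS1 was at 0.478 and 0.414 in wild type and 0.05 and 0.138 in knockdown. Its mRNA was below 1 RPKM, at 0.817 and 0.702 RPKM in wild type and 0.716 and 0.698 RPKM in knockdown. PAXIP1, an adaptor in the DNA damage response, was at 0.909 and 0.959 and at 0.478 and 0.711. SLC25A29, a mitochondrial carrier of basic amino acids, was at 0.783 and 0.694 and at 0.379 and 0.418. Its mRNA was at 0.387 and 0.691 RPKM in wild type and 1.45 and 1.17 RPKM in knockdown.

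Among these 12 exons the values differed in how far they rested on 1 library. Without knockdown replicate 1, 7 of the 12 stayed past the criterion, and the differences of ITGB3BP and PAXIP1 shrank by more than 1.5 times. Without knockdown replicate 2, 11 of the 12 stayed, all but IFT88. Without wild-type replicate 1 or 2, 9 stayed in each case, with CEP164, ITGB3BP and PAXIP1 lost in the former and DNMT3B, ITGB3BP and PAXIP1 in the latter. Over all 460 outer junctions, 10 were past the criterion whichever library was left out, and all 10 had higher inclusion. They were ZNF530, R3HDM1, SEC24B, ZNF227, BCAS1, SLC25A29 and SMPD4 from above, and, named after their values were seen, ARHGAP44, FBXO38 and ZNF655. FBXO38, an F-box protein, had an inclusion junction at 0.657 and 0.623 in wild type and 0.978 and 0.926 in knockdown. ZNF655 was at 0.485 and 0.487 and at 0.765 and 0.786. ARHGAP44 had a skipping junction at 0.660 and 0.632 and at 0.276 and 0.377. No matching count is given here over all cassette-exon outer junctions. Nothing particular to this class, and nothing about direction, is therefore read from these 10.

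**Figure D2:**
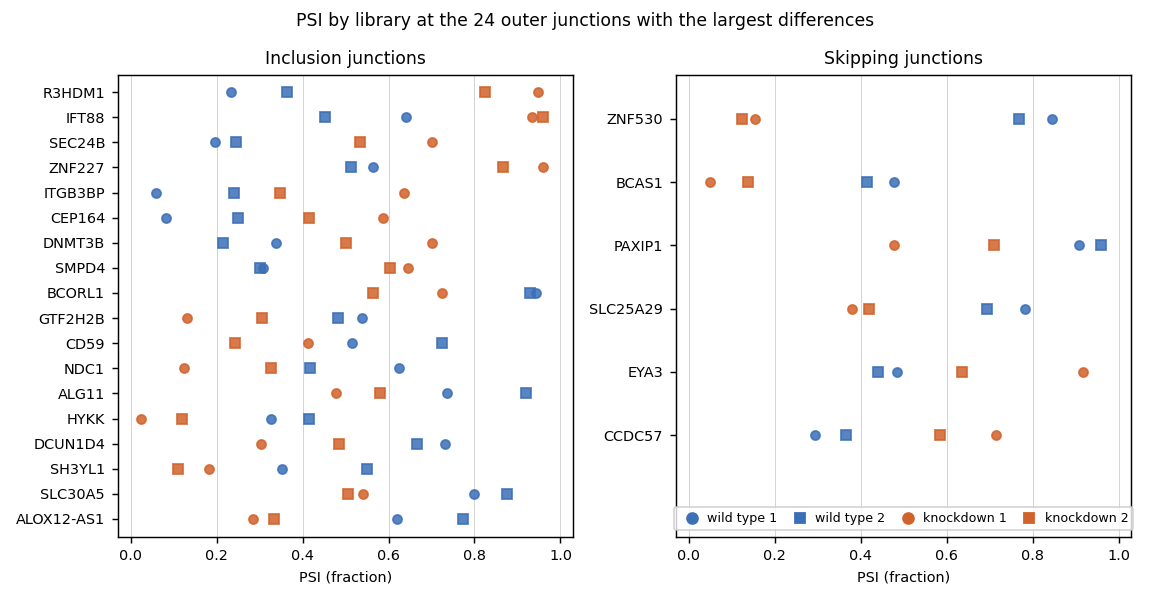
PSI (fraction, horizontal axis) in each library at the 24 outer junctions with the largest differences past the unadjusted criterion, inclusion junctions on the left and skipping junctions on the right, with wild type in blue and knockdown in orange (circle for replicate 1, square for replicate 2). No gene shows overlap of the groups, as the criterion requires; the replicates lie close in SMPD4 and far apart in ITGB3BP and EYA3.

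The 12 largest differences toward lower inclusion ran from -0.291 to -0.387, and the 12 toward higher inclusion from 0.320 to 0.668. ALOX12-AS1, an antisense RNA, led the lower ones, with its inclusion junction at 0.621 and 0.773 in wild type and 0.286 and 0.333 in knockdown (difference -0.387, SE 0.0942; limma adjusted p = 0.259). It is transcribed opposite another gene, and whether strand was used in counting is not given in the sources used here. Its exon of 94 bases is noncoding. ALOX12-AS1 RNA was also below 1 RPKM, at 0.234 and 0.220 RPKM in wild type and 0.254 and 0.296 RPKM in knockdown. SLC30A5, a zinc transporter of the secretory pathway, was at 0.800 and 0.875 in wild type and 0.541 and 0.507 in knockdown (difference -0.314, SE 0.0862; limma adjusted p = 0.259). The replicates of SLC30A5 lay closer to each other than to the other group, and its difference stayed past the criterion without wild-type replicate 1 and without either knockdown replicate, but not without wild-type replicate 2.

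Other members of the lower group act in several compartments. BCORL1, a transcriptional corepressor, was at 0.943 and 0.929 in wild type and 0.725 and 0.564 in knockdown. CD59, a surface inhibitor of complement lysis, was at 0.514 and 0.725 and at 0.412 and 0.242. NDC1, a membrane nucleoporin, was at 0.625 and 0.417 and at 0.125 and 0.327. In CD59 and NDC1 the replicates of each group lay farther apart than the nearest libraries of the 2 groups. DCUN1D4, of the cullin neddylation pathway, was at 0.731 and 0.667 and at 0.302 and 0.486. HYKK, hydroxylysine kinase, was at 0.327 and 0.415 and at 0.0233 and 0.119, and SH3YL1, a phosphoinositide-binding protein, at 0.353 and 0.550 and at 0.182 and 0.111. SH3YL1 mRNA was below 1 RPKM, at 0.579 and 0.403 RPKM in wild type and 0.660 and 0.602 RPKM in knockdown.

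EYA3, a transcriptional coactivator and phosphatase, was read from its skipping junction, at 0.485 and 0.441 in wild type and 0.917 and 0.636 in knockdown. CCDC57 was read in the same way, at 0.294 and 0.366 and at 0.714 and 0.585. The inclusion junction of ALG11, a mannosyltransferase of N-glycan assembly, was at 0.737 and 0.920 and at 0.478 and 0.580. ALG11 mRNA was below 1 RPKM, at 0.326 and 0.323 RPKM in wild type and 0.377 and 0.380 RPKM in knockdown. GTF2H2B, a copy of a TFIIH subunit gene with near-identical relatives that may share reads, was at 0.537 and 0.483 and at 0.130 and 0.306. Of the 12 lower outer junctions, 6 and 3 stayed past the criterion without wild-type replicate 1 or 2, and 2 and 7 without knockdown replicate 1 or 2. No outer junction of these 12 stayed in all 4 cases. The differences of NDC1 (without wild-type replicate 1 or knockdown replicate 1), CD59 (without wild-type replicate 2) and EYA3 (without knockdown replicate 1) shrank by more than 1.5 times. On the logit scale, 7 of the 12 stayed, without ALG11, CD59, EYA3, GTF2H2B and NDC1.

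Inclusion and skipping junctions of the same outer junction are described together, without support for direction being drawn from them. In 89 pairs of events each junction is the background of the other, so that opposite signs are largely set by how PSI is built. At 110 outer junctions with both kinds listed, the first inclusion junction and the skipping junction differed in opposite directions in 97 (88.2%), and in the same direction in 13. Across these 110 pairs, which share the same 4 libraries and in most cases the same 2 junctions, Pearson's r between the differences was -0.92. In 23 pairs both junctions were past the unadjusted criterion, and all 23 differed in opposite directions, 21 with higher and 2 with lower inclusion. The 2 were ALOX12-AS1 and HYKK. In 24 pairs only 1 of the junctions was past it. At the 90 outer junctions with 2 inclusion junctions, the differences had the same sign in 71. The PSI of such mutual pairs summed to a median of 0.865 and to at most 1 over 356 sums, of which 8.15% lay within 0.02 of 1. In those, 1 PSI was nearly or exactly 1 minus the other, as in TCAIM, with differences of 0.258 and -0.258, named after its values were seen.

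**Figure D3:**
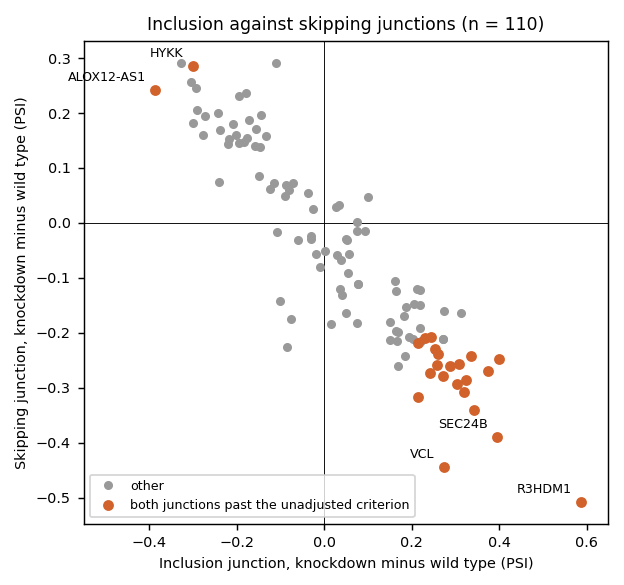
Difference in PSI (knockdown minus wild type) of the first inclusion junction (horizontal axis) and of the skipping junction (vertical axis) at 110 outer junctions with both listed, orange where both are past the unadjusted criterion. Points run from upper left to lower right, 97 of 110 in the quadrants of opposite sign, which the shared junctions largely set, and 21 of the 23 orange points lie at higher inclusion and lower skipping.

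Of the 460 outer junctions, 329 had a single annotated exon that fits between the neighbours in a GENCODE v29 transcript, all different exons. Exons with higher inclusion in knockdown were in frame (a length that is a multiple of 3) in 28 of 34 cases (82.4%) and those with lower inclusion in 13 of 17 (76.5%), while those past neither side were in frame in 153 of 278 (55%). Over all 329, 194 (59.0%) were in frame. Among fully coding exons, 23 of 147 in frame had higher and 10 lower inclusion, and of 49 out of frame 1 had higher and 1 lower inclusion. In the short class, 43 of 69 higher exons (62.3%) and 7 of 13 lower ones (53.8%) were in frame, beside 157 of 281 others (55.9%). In the long class the shares lay the other way, with 2 of 5 higher exons (40%) and 3 of 11 lower ones (27.3%) in frame, beside 61 of 125 others (48.8%). None of these differences in share was tested.

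Other features of the exons were described in the same way, also without a test. The median length was 97.5 bases in the higher, 108 in the lower and 105.5 in the remaining exons, and the median GC content was 50.3%, 47.6% and 48.7%. A G as the last base, the most common letter at that place of the 5′ splice site, was present in 24 of 34 higher exons (70.6%), 14 of 17 lower (82.4%) and 225 of 278 others (80.9%). The median upstream and downstream introns of the higher exons were 4810 and 2761 bp, of the lower 4661 and 4265 bp, and of the others 4488 and 3951 bp. Noncoding exons made up 4 of 34 higher (11.8%), 4 of 17 lower (23.5%) and 81 of 278 other exons (29.1%).

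**Figure D4:**
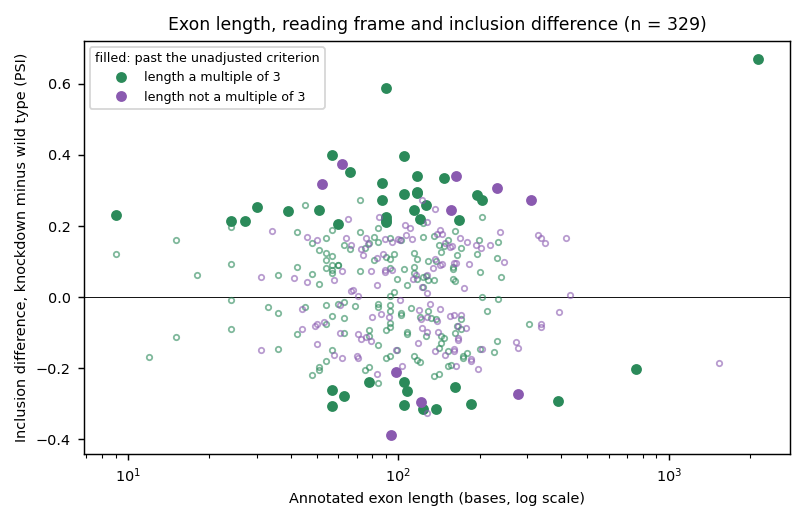
Inclusion difference (PSI, knockdown minus wild type, vertical axis) against annotated exon length (bases, log scale) for 329 outer junctions, green where the length is a multiple of 3 and purple where it is not, filled where past the unadjusted criterion. Filled points are mostly green on both sides of 0, 28 of 34 above and 13 of 17 below, and no filled point below 0 is shorter than 57 bases.

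Exons of 30 bases or fewer, often called microexons, were 13 in number, all in frame. Higher inclusion past the criterion was seen in 4 and lower in 0, with a median difference of 0.121, beside 10.0% higher and 5.87% lower over all 460 outer junctions. With 13 exons and a limit of 30 bases set after values were seen, nothing particular to microexons is read from this count. PTK2, focal adhesion kinase, has an exon of 9 bases whose inclusion junction was at 0.384 and 0.368 in wild type and 0.643 and 0.568 in knockdown. HERC4, a ubiquitin ligase, has one of 24 bases, at 0.0335 and 0.0892 and at 0.287 and 0.264. SNX14, a sorting nexin, has one of 27 bases, at 0.409 and 0.354 and at 0.630 and 0.560, and PPP3CC, a catalytic subunit of calcineurin, one of 30 bases, at 0.235 and 0.317 and at 0.492 and 0.566. PPP3CC mRNA was below 1 RPKM, at 0.945 and 0.824 RPKM in wild type and 0.813 and 0.895 RPKM in knockdown. In all 4 exons the nearest libraries of the 2 groups lay farther apart in PSI than the replicates of either group. Not every short exon lay on this side. VPS29, a subunit of retromer, has one of 12 bases, at 0.502 and 0.489 in wild type and 0.329 and 0.327 in knockdown, which did not pass the criterion (limma adjusted p = 0.285), and MTMR1, a phosphoinositide phosphatase, had overlapping groups at 0.282 and 0.115 and at 0.303 and 0.0769.

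Known targets of RBM10 are represented by 1 of 12 listed genes, NUMB, an endocytic adaptor that restrains Notch signalling. The exon of 144 bases printed above is exon 9 of transcript ENST00000355058, and its skipping junction was at 0.521 and 0.381 in wild type and at 0.293 and 0.355 in knockdown. The groups did not overlap, but the nearest libraries of the 2 groups lay closer together than the wild-type pair, and the difference in inclusion of 0.127 (SE 0.0935) did not pass (limma adjusted p = 0.419). NUMB mRNA was at 3.41 and 2.82 RPKM in wild type and 3.15 and 3.77 RPKM in knockdown.

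The gene lists, chosen with earlier results of these data known, held few members each. Of 11 outer junctions in 9 actin, adhesion and junction genes, 3 had higher inclusion past the criterion and 0 lower, with a median difference of 0.0876. These were VCL, PTK2 and CLASP2, a microtubule plus-end protein whose skipping junction was at 1 in both wild-type libraries and at 0.792 and 0.768 in knockdown. SVIL, supervillin, an actin-binding membrane protein, was at 0.233 and 0.448 and at 0.172 and 0.196 and did not pass. Without a single library, VCL stayed only when the library left out was a knockdown one, PTK2 only without knockdown replicate 2, and CLASP2 in no case.

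Of 11 outer junctions in 10 membrane traffic genes, 3 were higher and 0 lower, with a median difference of 0.103. They were SEC24B, SNX14 and BIN1, which bends membranes and was at 0.572 and 0.495 in wild type and 0.75 and 0.767 in knockdown. GGA1, an adaptor of the trans-Golgi, had a skipping junction at 0.841 and 0.784 and at 0.667 and 0.484 and did not pass (limma adjusted p = 0.269). BIN1 and SNX14 were not past the criterion when any library was left out. Among all cassette-exon outer junctions, 11.2% were higher and 5.97% lower, and nothing particular to the lists is read from their counts.

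Among 4 kinase and phosphatase genes, 1 outer junction, that of PPP3CC, was higher and 0 were lower. PPP3CC, with mRNA below 1 RPKM in every library, did not stay past the criterion without wild-type replicate 1 or knockdown replicate 2. MAP4K4, a kinase upstream of JNK, was at 0.15 and 0.246 in wild type and 0.370 and 0.399 in knockdown and did not pass (limma adjusted p = 0.281). MAP2K7, the JNK kinase, had a skipping junction at 0.513 and 0.800 and at 0.479 and 0.531. Of 6 outer junctions in chromatin and transcription genes, 1, of DNMT3B, was higher and 0 lower. NCOR1, a nuclear receptor corepressor, had a skipping junction at 0.507 and 0.487 and at 0.720 and 0.614 (limma adjusted p = 0.292), BPTF, of the NURF remodeller, was at 0.673 and 0.226 and at 0.684 and 0.519, and ATRX, a remodeller of heterochromatin, at 0.615 and 0.517 and at 0.529 and 0.771. The last 2 overlapped between groups. Of 2 splicing regulators, MBNL1 was at 0.385 and 0.516 and at 0.358 and 0.252, and MBNL2 at 0.2 and 0.216 and at 0.225 and 0.4, and neither passed.

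The genes that hold these exons were also compared in expression. Of 436 host genes, 380 were at a group mean of 1 RPKM or more and were tested on log2(RPKM + 1), of which 43 (11.3%) rose and 10 (2.63%) fell in knockdown (limma, adjusted p under 0.05), beside 15.3% and 7.03% of all tested genes. The median log2 change was 0.05 in host genes and 0.02 in all genes. The split depended on scaling, with 23 higher and 26 lower under quantile normalization and 32 and 19 under cyclic loess. Lower counts also came with single libraries left out, down to 28 higher (without knockdown replicate 2) and 4 lower (without knockdown replicate 1), with 5 and 6 lower without wild-type replicate 1 and knockdown replicate 2.

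Among all 380 tested host genes, 43 (11.3%) rose and 10 (2.63%) fell. Of 41 tested host genes with higher inclusion past the splicing criterion, 3 rose and 2 fell in expression. Of 21 with lower inclusion past it, 1 rose and 1 fell. These counts are small, and no difference in share was tested. The 3 were SLC25A29, SREBF1, a regulator of lipid synthesis, and PLD1, a phospholipase, and the 2 were ACIN1, a component of a splicing-associated complex, and AKR1C2, an aldo-keto reductase with near-identical relatives. CD59 was at 7.89 and 6.95 RPKM in wild type and 13.8 and 13.6 RPKM in knockdown (log2 change 0.81, limma adjusted p = 0.000776), while its inclusion value was lower. The other was POLE2, a DNA polymerase subunit, at 13.3 and 11.5 RPKM and at 9.08 and 9.19 RPKM. R3HDM1, SEC24B, SMPD4 and IFT88 did not pass in expression (limma adjusted p = 0.158, 0.822, 0.887 and 0.875).

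The 4 host genes that rose most and the 4 that fell most had no outer junction past the splicing criterion. ANKRD30A rose from 7.67 and 6.39 RPKM to 20.1 and 22.0 RPKM (log2 change 1.46, SE 0.12; limma adjusted p = 3.49e-05), and its inclusion difference was -0.0115. WIPI1, an autophagy protein, rose from 2.63 and 2.44 to 7.44 and 7.39 RPKM, and its inclusion junction was at 0.960 and 0.833 in wild type and 0.633 and 0.726 in knockdown (limma adjusted p = 0.27). ZNF185, an actin-binding LIM protein, went from 1.11 and 0.937 to 3.77 and 3.94 RPKM, and KIRREL3, an adhesion molecule, from 1.72 and 2.39 to 5.48 and 5.38 RPKM. Among those that fell, CACNA1G, a T-type calcium channel, went from 4.65 and 4.71 to 1.77 and 2.11 RPKM, and CTDP1, a phosphatase of RNA polymerase II, from 3.48 and 3.71 to 1.85 and 1.77 RPKM. MAP4K3, a kinase, went from 5.30 and 3.80 to 2.38 and 2.89 RPKM (limma adjusted p = 0.0177, 0.106 without the filter on low values, and 0.0851 without wild-type replicate 1, where the log2 change was -0.41). LUC7L, a U1 snRNP-associated splicing factor, fell from 14.3 and 14.4 to 9.67 and 9.99 RPKM, and the skipping junction of its cassette exon was at 0.966 and 0.913 in wild type and 0.738 and 0.811 in knockdown (limma adjusted p = 0.293).

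**Figure D5:**
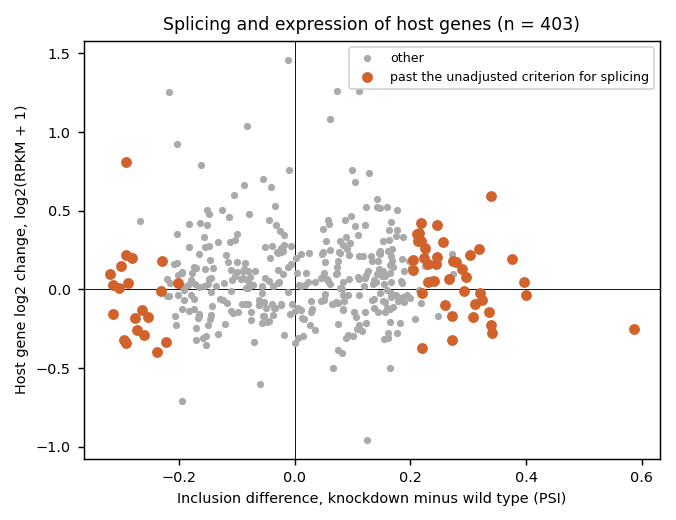
Log2 change of the host gene on the log2(RPKM + 1) scale (vertical axis) against the inclusion difference (PSI, knockdown minus wild type, horizontal axis) for 403 outer junctions in tested genes, orange where past the unadjusted criterion for splicing. Orange points lie mostly near 0 in expression, with CD59 at 0.81 as the highest, and the largest changes in level belong to grey points.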

How the data were processed

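RNA of 4 libraries of A549 cells was analysed, 2 wild-type and 2 with RBM10 knockdown. Per the submitters' processing notes, STAR 2.6.1 and hg38 were used; the splicing caller and gene counter are not named in the labels. The authors deposited PSI, a fraction, without read counts, so the depth behind a PSI is unknown and no interval was computed. The authors' deposited RPKM are so named from their values, since the file gives no unit. Events were fitted with limma 3.58.1 in R 4.3.3 (no covariate, two-sided, Benjamini-Hochberg over 3744 events with 4 values), and expression on log2(RPKM + 1) with a trend, over 10182 genes with a group mean of 1 RPKM or more. Of 2764 junction ends, 2735 matched an exon boundary of the same gene in GENCODE v29, which gave exons and sequences. The intron letters at the splice sites were not used here, as no genome was at hand.

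In limma runs on simulated data (3744 events), 44.0% and 84.0% of events given PSI changes of 0.2 and 0.4 met p under 0.05 with a difference of 0.1 or more. Of unchanged simulated events, 5.53% did, and 0% of simulated events passed adjustment. The intermediate cassette-exon events all had a deposited dPSI of 0.15 or more, so they already varied over these libraries. The simulated PSI rates are therefore not read as error rates or power for those events, nor compared with their observed counts. In expression, adjustment was passed by 73.0% of genes simulated with a log2 change of 1 and by 96.0% with 2 (10182 genes).

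Members, gene lists and naming rule were chosen with earlier results of these data known. Named are the 12 outer junctions with the largest difference in each direction past the unadjusted criterion, up to 6 with all events at p under 0.05, those in the reported RBM10 targets, up to 4 per other list, those at the edges of the span range, and the 4 host genes with the largest rise and fall. Microexons and a few others were named after their values were seen.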

Additional observations from a re-analysis of the deposited data

How the results depend on the processing

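The 2 libraries per group and the unknown read depth behind each PSI limit every comparison. The 0 events past adjustment, out of 691, stayed 0 on the logit and arcsine scales, with a variance trend, a robust fit and cassette exons alone (without adjustment, 133 had p under 0.05). Asking for a difference of 0.2 or more could not have raised that 0, so it was no check. With the replicate number as a block, 5 passed, 2 of R3HDM1 and 1 each of VCL, ZNF227 and ZNF530 (62 over all events). The numbers share no stated source, and deviations of same-numbered libraries correlated at -0.0752 over these events. Without 1 library, events past the unadjusted criterion numbered 53 to 62 (main 133), outer junctions with higher inclusion 23 to 30 (main 46) and lower 11 to 12 (main 27), and the median inclusion difference was 0.0111 to 0.0447 (main 0.0236), or 0.0454 with the largest event and 0.0136 with inclusion junctions alone. The counts of higher and lower outer junctions stayed within 1.5 times in the other settings, the block included (38 and 24). In expression, host genes higher and lower numbered 19 and 4 without the filter, 23 and 26 under quantile normalization, 32 and 19 under cyclic loess, 28 and 5 with the replicate block, and 85 and 37 with crossed replicate numbers, a setting added after seeing the data, since same-numbered libraries deviated in opposite directions (r = -0.44). Without 1 library they numbered 28 to 36 and 4 to 14. RBM10 kept its direction and call throughout. Direction turned for 3 exons not past the criterion. Without 1 library, the inclusion difference of MTMR1 ran from -0.122 to 0.104 (0.0746 without wild-type replicate 1 and 0.104 without knockdown replicate 2), of ATRX from -0.0369 (without knockdown replicate 2) to 0.205, and of BPTF from -0.0721 (without wild-type replicate 2) to 0.376. The cause of these shifts was not tested. The planned change of window before the 3′ splice site was not run, since the intron sequence was not at hand.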
